A study of Xenopus laevis with 6 samples.

Results

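The genes of the bone morphogenetic protein (BMP), transforming growth factor beta (TGF-beta) and activin pathways were followed across 3 digestive organ buds of Xenopus laevis. A gene was a member if its symbol in the platform annotation, without its copy ending, began with the name of a BMP, GDF, TGF-beta, SMAD, inhibin, nodal, activin receptor, follistatin, chordin, noggin, gremlin, bambi, LTBP, lefty or smurf gene. This name rule took in 56 of the 7531 genes with a symbol on the array, through 68 probe sets (sets of short probes for 1 transcript). No expression value entered the rule, except that the brightest probe set stood for each of the 9 members with several. The endings .L and .S mark the copies that the ancestral genome duplication of this frog left on its long and short chromosome sets, and each copy counted as a gene.

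The tested tissues were pancreas buds, liver buds and stomach buds of stage 42 embryos, swimming tadpoles in which the dorsal and ventral pancreas have fused. Each organ had 2 Affymetrix arrays of total RNA from 2 separate isolations, called replicates 1 and 2, with sexes mixed. Per the series' design text the buds held mesoderm beside the endoderm, so that wall, vessel and blood cells are part of every sample. The study asked which genes the young pancreas expresses above its neighbours, and neither strain nor embryo number per isolation is stated in the labels.

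Values were intensities on a linear scale with a median of 100 on every array. No detection calls came with them, so it cannot be said which members were above background, and with 2 arrays an organ each value is imprecise. Arrays of 1 organ correlated across genes at Pearson r of 0.946 to 0.955 and arrays of different organs at 0.850 to 0.904. Marker genes followed the labels. The summed intensity of 8 exocrine genes was 100984 and 66028 in pancreas, against 331 and 598 in liver and 3994 and 5083 in stomach. That of 10 hepatocyte genes was 3628 and 1677 in pancreas, 84576 and 63235 in liver and 10178 and 8138 in stomach. That of 4 gastric epithelium genes was 48.0 and 490 in pancreas, 63.7 and 50.1 in liver and 12584 and 7181 in stomach. Pancreas replicate 1 was thus the higher of its pair for hepatocyte genes and replicate 2 for gastric genes. None of these markers was at 0 on any array, the lowest intensity of the whole table being 0.105.

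Ligands of this superfamily bind pairs of receptors on the cell surface, which phosphorylate SMAD proteins that enter the nucleus with the common partner smad4. BMP ligands act mainly through SMAD1, SMAD5 and SMAD9, and TGF-beta, activin and nodal ligands through SMAD2 and SMAD3. Secreted antagonists hold ligands away from receptors, and inhibitory SMADs, the decoy receptor bambi and smurf ubiquitin ligases damp the signal inside. In vertebrate embryos BMP signals from the septum transversum mesenchyme favour liver over pancreas in the foregut endoderm, and activin from the notochord acts on the dorsal pancreas endoderm.

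Of the 56 members, 7 differed among the 3 organs by limma's moderated F test (Benjamini-Hochberg adjusted p under 0.05 over 15491 probe sets), and 21 had an unadjusted p under 0.05, as did 2606 of the 7531 genes. Of all genes, 14.8% were called by the same test, and of the members 12.5%, near that background. With any 1 array left out 0 to 2 members were called, beside 3.56% to 7.82% of all genes; the 0 was without pancreas replicate 1, where 5.63% of all genes were called. The 7 were nodal3.1.L, bmpr1a.S, bambi.S, bmp1.S, bmper.L, fst.L and nog.L. The gene tgfbi.L was called for 1 pair of organs but not by the F test. By limma 0 members were called higher in pancreas than in liver, against 3.27% of all genes (unadjusted p under 0.05 for 4 members and 1081 of 7531 genes), and 2 lower, against 3.96% (7.22% of all genes in either direction). Against stomach, 0 members were called higher in pancreas, against 4.41% of all genes (unadjusted p under 0.05 for 9 members and 1238 of 7531 genes), and 2 lower, against 4.9% (9.31% in either direction). In liver against stomach 3 members were called higher, with 5.84% of all genes, and 2 lower, with 5.36% (11.2% in either direction). The 3 comparisons share arrays, so a high or low organ shows in 2 of them. In whole buds fewer cells of a type and less RNA per cell cannot be told apart.

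**Figure D1:**
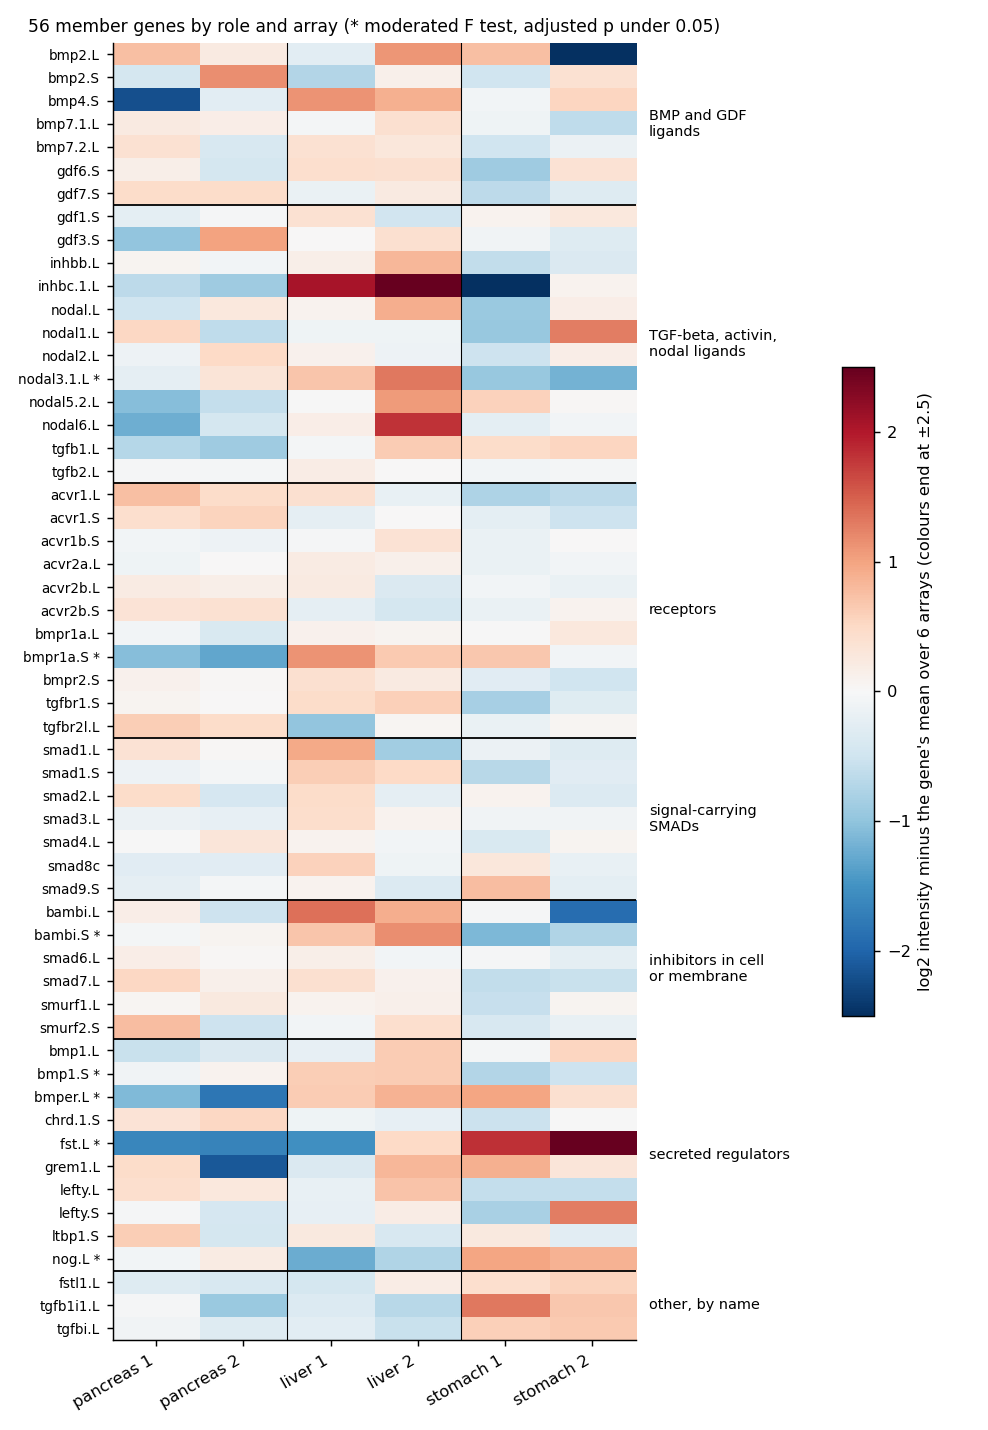
Colour gives the log2 intensity of each of the 56 members (rows, grouped by role) on each of the 6 arrays (columns), minus the gene's mean over the arrays; red is above and blue below that mean, and asterisks mark the 7 genes called by the F test. Most rows are pale, with fst.L at its reddest in stomach and inhbc.1.L in liver.

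Over all members the arrays were ordered as follows. Both liver arrays were above both stomach arrays for 25 of the 56 members (44.6%, against 30.1% of all genes) and below them for 6 (10.7%, against 27.2%). Both pancreas arrays were below both liver arrays for 24 members (42.9%, against 25.2% of all genes) and above them for 7 (12.5%, against 33.2%). Between pancreas and stomach, 19 members were above (33.9%, against 36.9% of all genes) and 16 below (28.6%, against 25.1%). The median log2 difference of the members was -0.20 for pancreas minus liver, 0.25 for pancreas minus stomach and 0.26 for liver minus stomach, and over all genes it was 0.07, 0.12 and 0.04. Members were dim as a group. Their median mean intensity was 63.1, against 162 over all genes, and 28 of the 56 stayed under 100 on every array.

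Among the BMP and GDF ligands, no member of 7 was called for any pair or by the F test, which called 14.8% of all genes. The brightest was gdf7.S, a BMP-type ligand known from the dorsal neural tube, at 159 and 159 in pancreas, 103 and 136 in liver and 73.3 and 92.1 in stomach. Its pancreas arrays lay above all others, by 1.94-fold over stomach (log2 difference 0.95, SE 0.239), which did not pass (limma adjusted p = 0.0800). The gene bmp7.1.L, a broadly expressed BMP, was at 129 and 125 in pancreas, 106 and 145 in liver and 103 and 71.1 in stomach, so that pancreas and liver overlapped. Probe sets of bmp2.L, bmp2.S, bmp7.2.L and gdf6.S lay between 3.55 and 49.5 on all arrays.

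The gene bmp4, whose product patterns ventral mesoderm and takes part in liver induction, showed an organ difference through a probe set that is no member. The set of bmp4.S read 3.58 and 13.6 in pancreas, 35.4 and 30.2 in liver and 15.5 and 23.6 in stomach, and was not called for any pair (limma adjusted p = 0.124 for pancreas minus liver). Another set, annotated to bmp4.L and bmp4.S together and therefore outside the name rule, read 167 and 137 in pancreas, 524 and 537 in liver and 210 and 192 in stomach. Liver stood clear of both other organs there. Pancreas was 3.51-fold lower than liver there (log2 difference -1.81, SE 0.203, limma adjusted p = 0.0139), and liver was 2.64-fold higher than stomach (1.40, SE 0.203, limma adjusted p = 0.0199). Those log2 differences ranged from -1.95 to -1.67 and from 1.33 to 1.47 with any 1 array left out. The adjusted p then ranged from 0.0404 to 0.0784 and from 0.0436 to 0.0955, over 0.05 whenever an array of either organ of the pair was missing. Such sets, 7 in all for member genes, were looked at after the values of the members were seen. Only those of bmp4 and bambi were called. The sets of acvr2b, bmp2, bmpr1a, nodal3 and smad4.2 were not called for any pair or by the F test (limma adjusted p of the F test from 0.220 to 0.978).

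Of 12 TGF-beta, activin and nodal ligands, 1 was called by the F test, beside 14.8% of all genes. The gene nodal3.1.L encodes an unusual nodal that acts against BMP in the frog gastrula. It read 11.4 and 16.6 in pancreas, 21.5 and 32.8 in liver and 6.86 and 5.86 in stomach, 3 groups that did not overlap at a very low level. Liver was 4.18-fold higher than stomach (log2 difference 2.06, SE 0.318, limma adjusted p = 0.0225), and 1.91-fold with 16 added to each intensity. The call was lost without any 1 liver or stomach array (limma adjusted p up to 0.106). A set shared by nodal3.1.L and nodal3.2.L did not show this pattern, at 21.2 and 42.0 in pancreas, 33.3 and 30.6 in liver and 35.2 and 26.8 in stomach (limma adjusted p = 0.952 for liver minus stomach).

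The gene inhbc.1.L encodes an activin C-type subunit, a chain known in mammals chiefly from hepatocytes. It read 30.1 and 25.5 in pancreas, 198 and 305 in liver and 4.85 and 50.1 in stomach. Both liver arrays were above all others, and the stomach arrays lay far apart. The 15.8-fold liver excess over stomach did not pass (log2 difference 3.98, SE 1.08, limma adjusted p = 0.0955). With 16 added, it was 5.99-fold lower in pancreas than in liver and 7.06-fold higher in liver than in stomach, both called (limma adjusted p = 0.0214 and 0.0118). Without stomach replicate 1 or 2 it was also called lower in pancreas than in liver (limma adjusted p = 0.0305 in each), and without stomach replicate 2 higher in liver than in stomach (0.0267). The activin B chain inhbb.L, a ligand of broad use, read 128 and 116 in pancreas, 135 and 215 in liver and 78.8 and 94.5 in stomach, and liver was above stomach on both arrays without a call (limma adjusted p = 0.114).

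The ligand tgfb1.L, a regulator of matrix and immune cells, read 27.2 and 23.9 in pancreas, 42.9 and 68.8 in liver and 60.6 and 64.4 in stomach. Both pancreas arrays were the lowest, by 2.45-fold against stomach (log2 difference -1.29, SE 0.284, limma adjusted p = 0.0600). The gene tgfb2.L stayed between 39.4 and 46.6 on all 6 arrays. Early nodal genes of mesendoderm induction were low. The sets of nodal.L, nodal1.L, nodal5.2.L, nodal6.L, gdf1.S and gdf3.S lay between 1.37 and 64.2, and that of nodal2.L between 38.6 and 77.6.

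Of 11 receptors, 1 was called by the F test, beside 14.8% of all genes. The type I BMP receptor copy bmpr1a.S read 6.77 and 5.76 in pancreas, 31.0 and 22.4 in liver and 22.7 and 13.5 in stomach. Pancreas was 4.22-fold lower than liver (log2 difference -2.08, SE 0.336, limma adjusted p = 0.0337), and 1.91-fold with 16 added. The call was lost without any 1 pancreas or liver array (limma adjusted p up to 0.151) and with quantile normalization (0.0533). With the replicate number as a block it was also called lower in pancreas than in stomach (log2 difference -1.49, limma adjusted p = 0.0399, against 0.0638 without the block). The other copy, bmpr1a.L, read 229 and 184 in pancreas, 256 and 252 in liver and 239 and 286 in stomach. The set annotated to both copies read 93.7 and 71.9 in pancreas, 136 and 117 in liver and 172 and 115 in stomach. Both pancreas arrays were the lowest in each of these sets too, and neither set was called for any pair. The log2 ratio of .L over .S was 1.77 higher in pancreas than in liver (SE 0.400). The F test over organs of that ratio did not pass (limma adjusted p = 0.109 over 1017 copy pairs).

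Of the other receptors, 4 had both pancreas arrays above all others, and none of them was called. Over all genes, both pancreas arrays were above both liver arrays for 33.2% and above both stomach arrays for 36.9%. The share above both organs at once was not counted. The type II receptor acvr2b.S read 348 and 358 in pancreas, 234 and 201 in liver and 245 and 292 in stomach, above every other array but with no call (limma adjusted p = 0.122 for pancreas minus liver). The type I receptor acvr1.L read 271 and 224 in pancreas, 214 and 143 in liver and 94.2 and 103 in stomach, 2.5-fold over stomach at a limma adjusted p of 0.0513. Its copy acvr1.S read 274 and 300 in pancreas, 175 and 206 in liver and 172 and 142 in stomach (1.83-fold, limma adjusted p = 0.0756). Both copies were called higher in pancreas than in stomach with 16 added (limma adjusted p = 0.0193 and 0.0373).

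The TGF-beta type I receptor tgfbr1.S had its peak in liver instead, at 170 and 162 in pancreas, 224 and 244 in liver and 91.2 and 131 in stomach. Its liver excess over stomach was 2.14-fold (log2 difference 1.1, SE 0.245, limma adjusted p = 0.0578). That excess was called with dim probe sets left out (limma adjusted p = 0.0155), 16 added (0.0236) or an intensity trend (0.0207). The fourth receptor with pancreas on top, tgfbr2l.L, lay between 19.7 and 60.0 (limma adjusted p = 0.191 for pancreas minus liver). The remaining receptors acvr1b.S, acvr2a.L, acvr2b.L and bmpr2.S lay between 41.3 and 130 and were not called.

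None of 7 signal-carrying SMADs was called for any pair or by the F test, which called 14.8% of all genes. The common partner smad4.L read 191 and 239 in pancreas, 204 and 184 in liver and 148 and 202 in stomach, with all organs overlapping. The BMP-type smad9.S read 209 and 236 in pancreas, 262 and 194 in liver and 422 and 207 in stomach, where 1 stomach array stood alone. The BMP-type smad1.S was the nearest to a call, at 157 and 166 in pancreas, 263 and 242 in liver and 106 and 141 in stomach. Liver was 2.06-fold above stomach (log2 difference 1.04, SE 0.223, limma adjusted p = 0.0517), while the gene's other probe set gave 1.36-fold (limma adjusted p = 0.333). The brighter set was called for that pair with dim probe sets left out (limma adjusted p = 0.0135), 16 added (0.0215) or an intensity trend (0.0185). The sets of smad1.L, smad2.L, smad3.L and smad8c lay between 37.1 and 192.

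**Figure D2:**
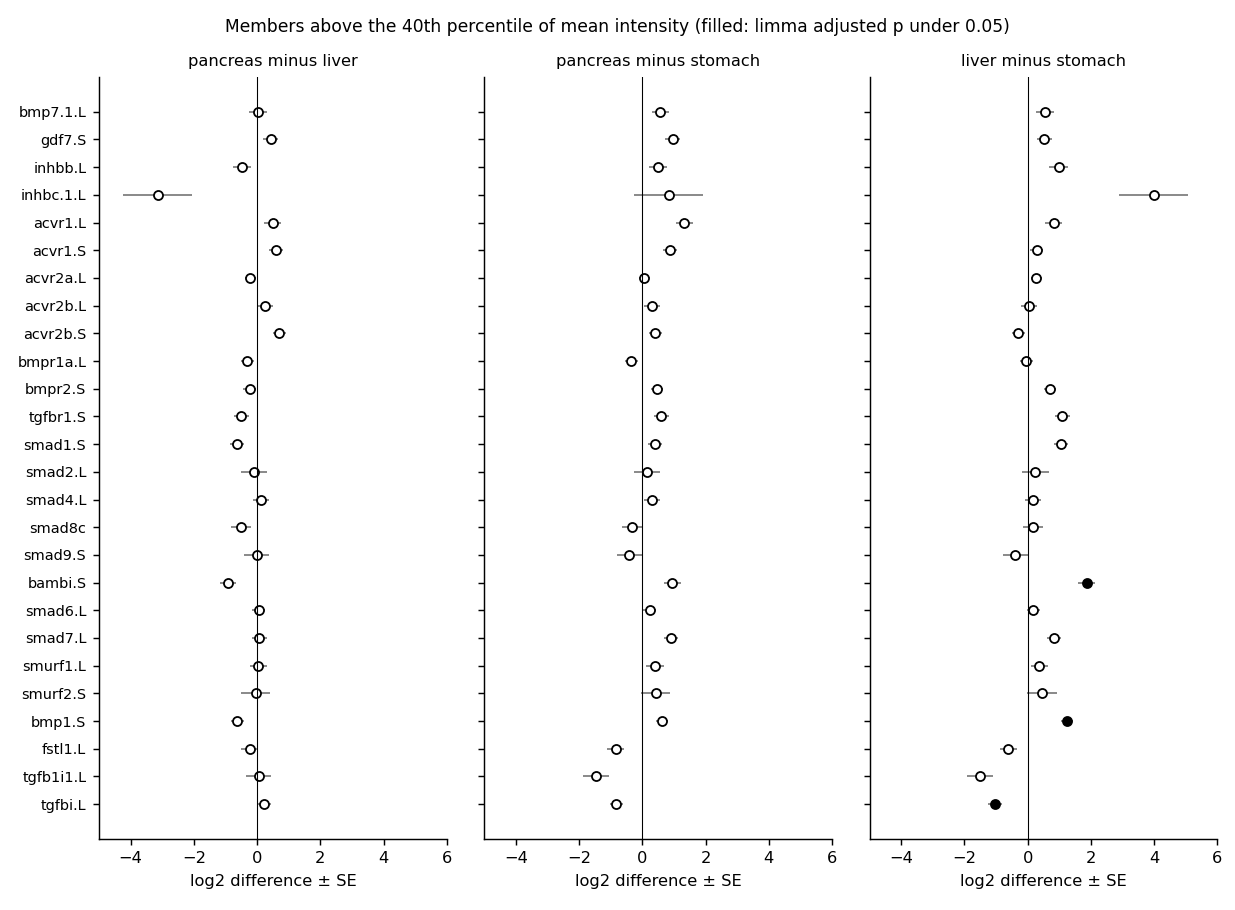
Points give the log2 difference between organs (x axis, with SE from limma) for the 26 members above the 40th percentile of mean intensity, 1 panel for each pair of organs, and filled points have an adjusted p under 0.05. Filled points stand only in the panel of liver minus stomach, where bambi.S and bmp1.S are above 0 and tgfbi.L is below.

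Of 6 inhibitors inside the cell and at its membrane, 1 was called by the F test, beside 14.8% of all genes. The decoy receptor bambi is transcribed in response to BMP in frog embryos and runs with bmp4 there. Its copy bambi.S read 64.7 and 69.5 in pancreas, 107 and 149 in liver and 30.7 and 39.3 in stomach, an order with no overlap. Liver was 3.64-fold higher than stomach (log2 difference 1.86, SE 0.257, limma adjusted p = 0.0182). The log2 difference was between 1.63 and 2.1 with any 1 array left out, and the call was lost without liver replicate 2 (limma adjusted p = 0.0642), stomach replicate 1 (0.0915) or stomach replicate 2 (0.0612). The copy bambi.L had liver on top as well, at 39.3 and 24.4 in pancreas, 90.7 and 66.0 in liver and 34.3 and 9.39 in stomach, and was not called (limma adjusted p = 0.131 for liver minus stomach).

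The brightest values came from the set annotated to bambi.L and bambi.S together, which is no member. It read 369 and 308 in pancreas, 970 and 986 in liver and 210 and 207 in stomach, with no overlap between organs. Pancreas was 2.90-fold lower than liver (log2 difference -1.54, SE 0.195, limma adjusted p = 0.0187). It was 4.68-fold higher in liver than in stomach (2.23, SE 0.195, limma adjusted p = 0.00721). Pancreas against stomach, at 1.61-fold, was not called (limma adjusted p = 0.103). The call against stomach was made whichever array was left out (limma adjusted p of 0.0189 to 0.0496), and that of pancreas against liver with none left out only (0.0509 to 0.101).

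**Figure D3:**
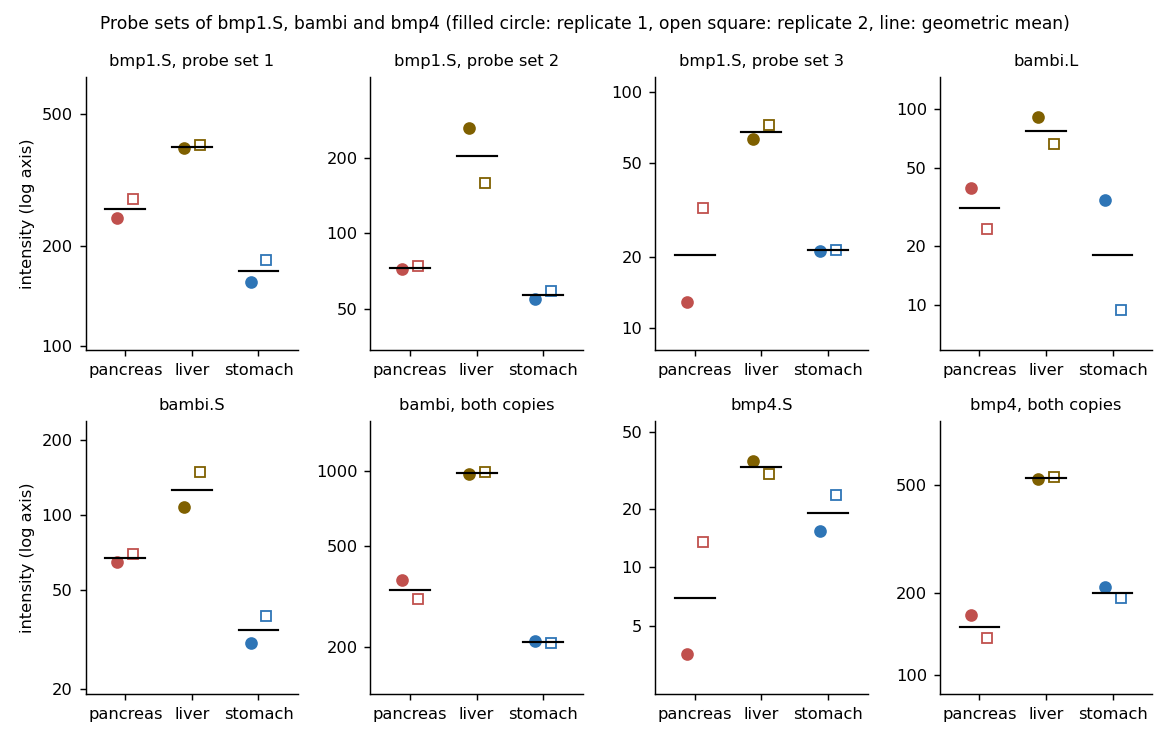
Intensity (log axis) of each array by organ for the 3 probe sets of bmp1.S, the sets of bambi.L, bambi.S and both copies together, and the sets of bmp4.S and of both copies together, with lines at geometric means. Liver has the highest mean in all 8 panels, and both liver arrays lie above both stomach arrays in each. The sets of bmp4.S, of bambi.L and of both copies together were chosen after their values were seen. The copy bmp1.L, in which liver and stomach overlapped, is not shown.

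The inhibitory SMAD genes are induced by the pathway and feed back on it. The gene smad7.L was the brightest member, at 729 and 556 in pancreas, 668 and 550 in liver and 334 and 345 in stomach. Stomach was lowest on both arrays, with pancreas 1.88-fold above it (log2 difference 0.91, SE 0.232, limma adjusted p = 0.0839) and liver 1.79-fold (0.84, limma adjusted p = 0.0992). One of its 2 other probe sets was called for liver over stomach (2.65-fold, limma adjusted p = 0.0422, and 0.0672 with the block). The brightest set was called for pancreas over stomach with dim probe sets left out (limma adjusted p = 0.0260), 16 added (0.0384) or an intensity trend (0.0199). For liver over stomach it was called with dim probe sets left out (0.0359) or an intensity trend (0.0263). The gene smad6.L was level, at 225 and 204 in pancreas, 221 and 192 in liver and 197 and 168 in stomach. The ubiquitin ligase genes smurf1.L and smurf2.S lay between 52.3 and 146 and were not called.

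Of 10 secreted regulators, 4 were among the 7 members that the F test called, beside 14.8% of all genes. Of these, fst.L, nog.L and bmper.L had a mean intensity under the 40th percentile of all probe sets. The antagonist gene fst.L, follistatin, which binds activin, read 9.93 and 9.67 in pancreas, 10.7 and 43.7 in liver and 110 and 172 in stomach. Stomach was above every other array, and pancreas was 14.0-fold lower than stomach (log2 difference -3.81, SE 0.688, limma adjusted p = 0.0395). With 16 added it was 5.96-fold lower. The call was made without liver replicate 1 or 2 and lost without a pancreas array (limma adjusted p = 0.165 and 0.145) or a stomach array (0.145 and 0.140).

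The BMP antagonist gene nog.L, noggin, read 55.6 and 66.5 in pancreas, 24.5 and 34.4 in liver and 115 and 106 in stomach, 3 levels with no overlap. Liver was 3.80-fold lower than stomach (log2 difference -1.92, SE 0.249, limma adjusted p = 0.0157), and 2.79-fold with 16 added. The call was lost without liver replicate 1 (limma adjusted p = 0.0634), stomach replicate 1 (0.0848) or stomach replicate 2 (0.0708). The order of its organ means, stomach over pancreas over liver, was the reverse of that of bambi.S.

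The gene bmper.L encodes a secreted BMP-binding protein known from vessels and lung. It read 21.8 and 13.5 in pancreas, 73.3 and 86.4 in liver and 93.8 and 62.3 in stomach, so only pancreas stood apart. Against liver, bmper.L was 4.63-fold lower in pancreas (log2 difference -2.21, SE 0.341, limma adjusted p = 0.0302) and against stomach 4.45-fold lower (-2.15, limma adjusted p = 0.0308). With 16 added these were 2.86-fold and 2.77-fold. Neither call was made with any array left out (limma adjusted p from 0.0537 to 0.120 and from 0.0581 to 0.139).

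The gene bmp1.S encodes a metalloprotease of the tolloid family, which cuts chordin and collagen precursors and is no BMP ligand. It read 242 and 277 in pancreas, 394 and 403 in liver and 156 and 181 in stomach, again with no overlap. Liver was 2.37-fold higher than stomach (log2 difference 1.25, SE 0.199, limma adjusted p = 0.0243). A further probe set of the gene was called too (3.56-fold, limma adjusted p = 0.0234) and the third was not (3.16-fold, limma adjusted p = 0.0957). With any 1 array left out the brightest set was not called (limma adjusted p from 0.0564 to 0.120), with a log2 difference from 1.14 to 1.36.

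In the copy bmp1.L liver and stomach overlapped, at 28.3 and 32.2 in pancreas, 35.7 and 64.1 in liver and 40.3 and 60.5 in stomach. The log2 ratio of .L over .S was 1.29 lower in liver than in stomach (SE 0.342), and the F test over organs gave a limma adjusted p of 0.110. It passed with 16 added (limma adjusted p = 0.0451). Of 8 pairs of member copies none was called in that test, in which 6.1% of 1017 pairs were, and 2 of the 8 pairs had an unadjusted p under 0.05. Copies of Xenopus genes are alike enough that probes of 1 may also bind the other, which would pull their patterns together. Whether this happened here was not tested.

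**Figure D4:**
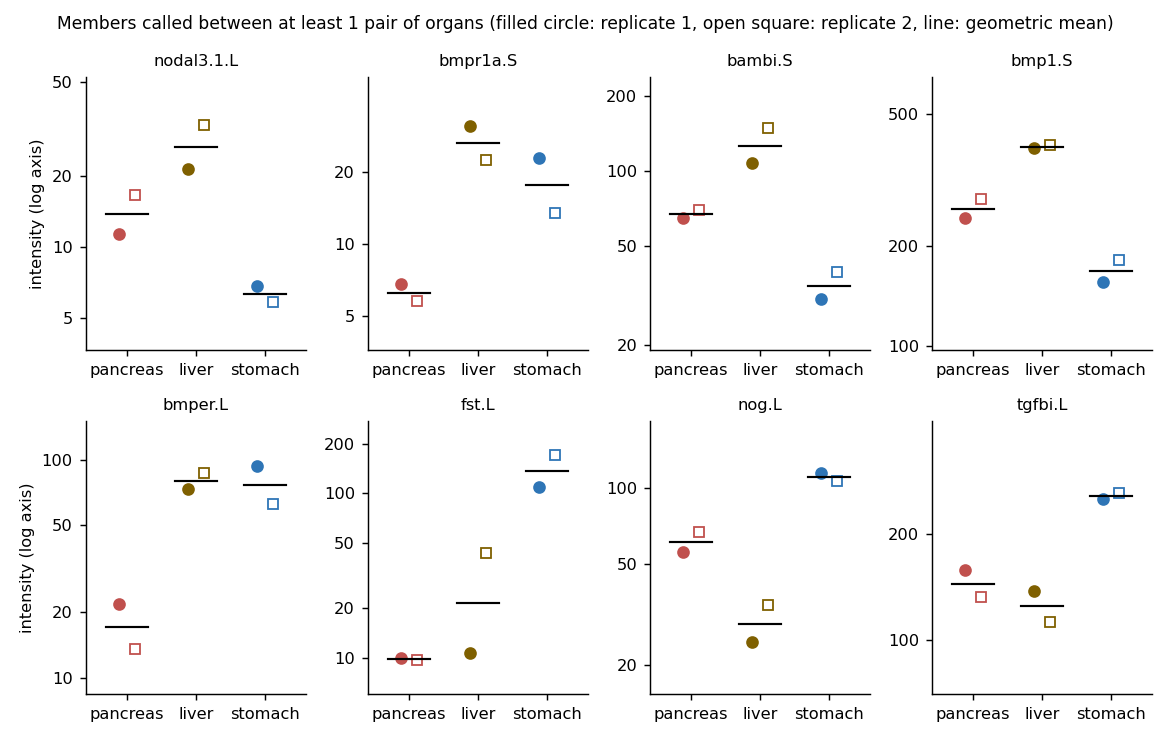
Intensity (log axis) of each array by organ for the 8 members called for at least 1 pair of organs, with lines at geometric means of the 2 arrays. Liver has the highest mean for nodal3.1.L, bmpr1a.S, bambi.S, bmp1.S and bmper.L, and stomach for fst.L, nog.L and tgfbi.L.

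Of the secreted regulators that were not called, ltbp1.S, which stores latent TGF-beta in matrix, read 80.9 and 39.1 in pancreas, 62.7 and 40.5 in liver and 63.2 and 44.3 in stomach. Its replicate 1 was above its replicate 2 in each organ. The antagonist chrd.1.S, chordin, read 37.9 and 42.6 in pancreas, 27.4 and 25.8 in liver and 20.5 and 29.3 in stomach, with pancreas on top at a low level. The sets of grem1.L, lefty.L and lefty.S lay between 4.11 and 41.3 on all arrays.

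The name rule also took in 3 genes counted here as outside these pathways, and all had both stomach arrays above both arrays of the other organs. Over all genes, both stomach arrays were above both pancreas arrays for 25.1% and above both liver arrays for 27.2%. How many of all genes met both conditions at once was not counted. The matrix protein gene tgfbi.L, named as a gene induced by TGF-beta, read 158 and 133 in pancreas, 138 and 113 in liver and 251 and 261 in stomach. Liver was 2.05-fold lower than stomach (log2 difference -1.03, SE 0.214, limma adjusted p = 0.0478), a call that was lost with any array left out (0.0919 to 0.172). The focal adhesion gene tgfb1i1.L, known from smooth muscle in mammals, read 405 and 216 in pancreas, 323 and 254 in liver and 1024 and 655 in stomach. Against stomach it was 2.77-fold lower in pancreas and 2.85-fold lower in liver, neither called (limma adjusted p = 0.0980 and 0.0914). Both were called with the replicate block (0.0419 and 0.0329), with dim probe sets left out (0.0311 and 0.0294), with 16 added (0.0395 and 0.0345) and with an intensity trend (0.0276 and 0.0242). The secreted glycoprotein gene fstl1.L, a distant relative of follistatin, read 170 and 162 in pancreas, 157 and 242 in liver and 283 and 313 in stomach (limma adjusted p = 0.129 for pancreas minus stomach).

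Markers of other cell types moved with the organs too. Of 11 smooth muscle and mesenchyme genes, 6 were called lower in pancreas than in stomach and 6 lower in liver than in stomach. Their summed intensity was 3421 and 2395 in pancreas, 2939 and 2800 in liver and 15266 and 11143 in stomach, in the direction of fst.L, nog.L and the 3 genes taken in by name. The sum of 5 neuron and enteric glia genes ran the same way, at 150 and 219 in pancreas, 158 and 156 in liver and 296 and 337 in stomach. Of these 5, 0 were called lower in pancreas than in stomach and 1 lower in liver than in stomach. The gastric epithelium sums given above also peaked in stomach, and the hepatocyte sums in liver. In liver against stomach, 6 of 8 erythrocyte genes, 4 of 6 endothelium genes and 3 of 7 leukocyte genes were called higher, in the direction of bambi.S, bmp1.S and nodal3.1.L. The erythrocyte sum was 12263 and 11969 in pancreas, 38475 and 38795 in liver and 8108 and 8943 in stomach. The endothelium sum was 675 and 614 in pancreas, 1041 and 936 in liver and 561 and 525 in stomach, and the leukocyte sum was 555 and 605, 1778 and 1320, and 538 and 424 in the same organs. The part of these cells in the member results was not tested.

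Other genes of the pathways, from lists based on textbook knowledge, were called as follows. Of 54 measured genes, 5 differed among organs by the F test (9.26%, against 14.8% of all genes). Among 18 extracellular modulators and co-receptors it was rgma.L, a BMP co-receptor, at 195 and 178 in pancreas, 20.2 and 7.46 in liver and 472 and 512 in stomach. Its pancreas level was 15.2-fold above that of liver (limma adjusted p = 0.0175). Its liver level was 40-fold below that of stomach (log2 difference -5.32, SE 0.484, limma adjusted p = 0.00775). Because the liver values were low, these were 6.95-fold and 17.4-fold with 16 added. Without liver replicate 1 or 2 the log2 difference from stomach was -6.04 and -4.61, and that of pancreas from liver 4.64 and 3.21. The call against stomach was lost without stomach replicate 1 (limma adjusted p = 0.0509), and that of pancreas against liver without pancreas replicate 1 (0.0987) or 2 (0.0885). With 1 array left out, the list genes called by the F test numbered 0 to 4, 0 of them without stomach replicate 1. The proprotein convertase gene furin.S, whose enzyme cuts ligand precursors, was 8.66-fold higher in liver than in stomach (limma adjusted p = 0.0386, and 0.0675 with the block), at 47.1 and 96.7 in pancreas, 208 and 132 in liver and 30.4 and 12.1 in stomach.

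Of 13 intracellular factors, 2 were called by the F test, beside 14.8% of all genes. The ubiquitin ligase gene nedd4l.S, whose product can degrade SMADs and the receptor TGFBR1, read 84.0 and 89.3 in pancreas, 312 and 286 in liver and 212 and 221 in stomach. It was 3.45-fold lower in pancreas than in liver and 2.5-fold lower than in stomach (limma adjusted p = 0.0125 and 0.0239). The nodal cofactor gene foxh1.L was 3.39-fold lower in pancreas than in liver (limma adjusted p = 0.0403, and 0.0502 with the block), at 14.1 and 24.5 in pancreas, 63.5 and 62.4 in liver and 31.4 and 32.9 in stomach. The SMAD corepressor gene tgif1.S was 3.63-fold higher in pancreas than in stomach (limma adjusted p = 0.0436), at 342 and 211 in pancreas, 126 and 80.0 in liver and 71.8 and 76.4 in stomach.

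Of 22 direct target genes, 2 were called by the F test, beside 14.8% of all genes. The gene id2.S, of the inhibitor-of-differentiation family, read 558 and 570 in pancreas, 195 and 183 in liver and 187 and 193 in stomach. Pancreas exceeded liver 2.99-fold and stomach 2.97-fold (limma adjusted p = 0.0144 and 0.0166). The gene mix1.L, a target of activin and nodal, was low, at 26.8 and 32.1 in pancreas, 32.7 and 41.5 in liver and 9.55 and 9.33 in stomach. It was 3.11-fold higher in pancreas and 3.90-fold higher in liver than in stomach (limma adjusted p = 0.0227 and 0.0112). With 1 array left out, each pairwise call of furin.S, nedd4l.S, foxh1.L, tgif1.S, id2.S and mix1.L was lost in at least 1 case, with a highest limma adjusted p between 0.0672 and 0.183. The median log2 difference over the 22 was 0.06 for pancreas minus liver, 0.45 for pancreas minus stomach and 0.33 for liver minus stomach, beside 0.07, 0.12 and 0.04 over all genes. The only listed ligand outside the name rule that was measured, gdnf.L, lay between 4.77 and 23.7.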

How the data were processed

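Per the submitters' processing notes RMA was used, without a version, and per the series' design text the Expressionist software refined the data; no further step is named in the labels. The deposited table holds the authors' linear intensity values, 1 column per array, with a median of 100 over 15611 rows. After 120 control rows were left out, 15491 probe sets remained, of which 9304 had 1 symbol in the platform annotation, 195 several and 5992 none. For each gene the probe set with the highest mean stood. Of the 56 members, 55 were found by identifier in a RefSeq table of assembly Xenopus_laevis_v10.1, and no symbol was updated.

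Organs and replicate numbers came from the titles. Organ means of log2 intensity over all 6 arrays were fitted with limma 3.58.1 in R 4.3.3 (lmFit, contrasts.fit, eBayes; residual df 3, prior df 2.14), with Benjamini-Hochberg adjustment over all probe sets. The fit was tested on simulated arrays with independent noise, no replicate pairing and known rises in brighter probe sets only. That test could not show how often rises in dimmer members are found, nor the effect of pairing. With 2 arrays a side, exact permutation allows no p under 0.333. P-values rest on the spread between the 2 isolations, pooled over the 3 organs and moderated across probe sets. Folds are ratios of geometric means. Copies were compared as log2(.L/.S) within each array.

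Titles give arrays of 1 replicate number a shared experiment code, and deviations from organ means correlated within a number at 0.173, 0.197 and 0.152 for the 3 pairs of organs, so the numbers were taken to pair the samples and a block was an alternative. Counts and p-values come from the fit without the block, which leaves that pairing out, unless the block is named. Other alternatives were leaving out each array, dropping the dimmest 40% of probe sets, quantile normalization, adding 16 and an intensity trend. Further ones were the dimmest probe set, leaving out the members counted as outside the pathways, and the plain ANOVA that the design text names.

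Members and lists were chosen with earlier results of these data known. Array values are printed for members called in any pair and for the 2 brightest others of each role; acvr1.L, acvr1.S, tgfbr1.S, smad1.S, tgfb1.L, bmp4.S, bambi.L and chrd.1.S, and furin.S and tgif1.S of the lists, were chosen after their values were seen.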

Additional observations from a re-analysis of the deposited data

How the results depend on the processing

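No call that a named gene had in the fit without the block changed direction under any setting run, but this was largely fixed in advance. The block, the intensity trend, dropping dim probe sets and leaving out an array of the third organ cannot change a log2 difference. Where the arrays of 2 organs do not overlap, leaving out 1 of them cannot turn its sign. Adding the replicate block moved the count of members called for pancreas minus stomach to 4 (bmpr1a.S and tgfb1i1.L joined) from 2, and that of liver minus stomach to 6 from 5. The F test then called 8 members in place of 7, beside 16.1% of all genes in place of 14.8%, and no member call was lost. Settings that weigh bright genes more called more members, and more of all genes. Under such changes shares of all genes were counted for the F test only. Pairwise counts of members under changed settings, and their splits, thus have no background and say nothing particular about the members. With dim probe sets left out, the F test called 11 of 26 members (33% of all genes kept). Of the 7 members it called with all probe sets, 5 were among those left out and could not be tested. Only bambi.S and bmp1.S of the 7 were called again. For liver minus stomach 10 members were called (8 higher, 2 lower), and for pancreas minus stomach 8 (5 higher, 3 lower). With 16 added, the F test called 15 members (23.7% of all genes), and 4, 9 (4 higher, 5 lower) and 11 (7 higher, 4 lower) were called for pancreas minus liver, pancreas minus stomach and liver minus stomach. With an intensity trend it called 13 (26.6%), no longer bmpr1a.S (adjusted p = 0.0567) and nodal3.1.L (0.0655), with 8 (4 higher, 4 lower) for pancreas minus stomach and 11 (7 higher, 4 lower) for liver minus stomach. Of the pathway genes outside the rule, the F test called 5 of 54 without these settings. It called 9 of the 25 kept with dim probe sets left out, beside 33% of all genes kept. With 16 added it called 10 of 54 (23.7% of all genes), and with an intensity trend 9 of 54 (26.6%). Receptors called under 1 or more of the 3 settings, but not in the fit without them, were acvr1.L, acvr1.S, acvr2b.S, bmpr2.S and tgfbr1.S. The other such members were the ligands bmp4.S, gdf7.S, inhbb.L, inhbc.1.L and tgfb1.L, and bambi.L, fstl1.L, smad1.S, smad7.L and tgfb1i1.L. With 16 added, 1 pair of copies, bmp1, was called. Quantile normalization left 1 member called for pancreas minus liver, as bmpr1a.S had an adjusted p of 0.0533. The F test then called 6 members, beside 15.4% of all genes. A plain ANOVA had 18 of 56 members at an unadjusted p under 0.05, beside 4180 of all 15491 probe sets. After Benjamini-Hochberg it had 0 members, where limma called 7. How many of all probe sets passed the adjusted plain ANOVA was not counted, so that 0 has no background beside it. With 1 array left out, the F test called 0 to 2 members and 3.56% to 7.82% of all genes, and 0 to 2 were called for pancreas minus liver, 0 to 1 for pancreas minus stomach and 0 to 3 for liver minus stomach; pathway genes outside the rule ranged from 0 to 4 and copy pairs stayed at 0. The 0 of the F test was without pancreas replicate 1. The lone array of an organ was then assumed to vary like the other organs. The cause of these changes was not tested. No background values were given, so whether the low intensities of nodal3.1.L, bmpr1a.S and fst.L stand above background was not tested.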
